A study of Mus musculus with 4 samples.

Results

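The glutamate receptors of brain cortex and the auxiliary subunits that travel with them were described in male mice of SAMP8, an inbred line used as a model of accelerated ageing with memory loss. Members were the gene probe sets whose platform symbol begins with Gria, Grin, Grik, Grm or Cacng and a digit, together with Cnih2, Cnih3, Neto1, Neto2, Shisa6, Shisa7 and Shisa9. They came to 36 of the 22206 gene probe sets on the array, 1 for each gene. Grin1 and Grm8 had no probe set named here and were not analysed here. The treated mice received TCQA, a compound the labels name in abbreviated form, orally at 5 mg/kg daily for 1 month from 11 months of age, and the control mice received MilliQ water for the same time. All mice had been housed singly from 7 months of age, and 2 arrays of brain cortex RNA were made for each group. Whether the samples of 1 group were separate animals is not stated in the labels.

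Glutamate carries most fast excitatory transmission in the cortex. AMPA, NMDA and kainate receptors are ion channels assembled from several subunits, and metabotropic receptors act through G proteins. AMPA receptors reach the synapse and open with their proper kinetics with the help of auxiliary proteins, among them the transmembrane AMPA receptor regulatory proteins (TARPs, from Cacng genes), the cornichons and the Shisa proteins. The Neto proteins play a like role for kainate receptors.

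All values below are log2 signals, on which a difference of 1 is a 2-fold change, and a level can be compared between arrays but not between genes. Differences are TCQA minus control from limma fitted over all gene probe sets. With 2 arrays in each group, the precision of every value is limited. Arrays stood apart within groups for some genes that are no members. Ttr, a choroid plexus gene, was at 12.23 and 14.97 with TCQA and at 7.49 and 16.42 in control. The mean of 12 immediate early genes was at 9.13 and 8.89 with TCQA, against 10.89 and 9.90 in control. For that mean the control arrays stood apart, and both TCQA arrays were lower than both control arrays. All 11 measured excitatory neuron markers were above the median negative control on every array, as were all 10 astrocyte markers. The 6 measured striatal markers were also above it on every array, with Drd2, a dopamine receptor, at 11.29 and 11.86 with TCQA and at 11.59 and 11.69 in control. Of the 36 members, 30 were above the median negative control on every array, and 5 had both group means under it (Grin2d, Grin3b, Grm6, Cacng1 and Cacng6). Cacng5 was under the median negative control on TCQA replicate 2 only. Differences of those 5 and of Cacng5 are less certain. In whole cortex, fewer cells of a type and less RNA per cell cannot be told apart.

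No member of the glutamate receptor group had a limma p under the threshold after Benjamini-Hochberg adjustment over every gene probe set (0 of 36, against 0 of 22206 probe sets, 0.0%). None met the depositors' criterion of an unadjusted p under 0.05 with a fold over 2 either, against 0.374% of all gene probe sets. Shisa7 was the 1 member of 36 with an unadjusted p under 0.05 (2.78%), against 6.24% of all gene probe sets. The members' median difference was -0.03, with 20 lower and 16 higher, beside a median of 0.01 over all gene probe sets, of which 48.9% were lower. The members' median was -0.11 without TCQA replicate 1 and -0.0027 without control replicate 2. The largest negative difference was that of Shisa7 at -0.61, and the largest positive one that of Cacng5 at 0.68. The 2 groups of arrays did not overlap for 14 members (38.9%), against 36.6% of all gene probe sets. In 9 of these TCQA was lower (against 17.8% of all gene probe sets), and in 5 it was higher (against 18.9%). For 31 members (86.1%) the 95% confidence interval of the difference lay within a 2-fold change either way, as it did for 86.4% of all gene probe sets. The 5 with a wider reach were Shisa7, Cacng5, Grm7, Grin3a and Cacng1. These intervals bound the size of a difference and do not show that the groups were alike.

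**Figure D1:**
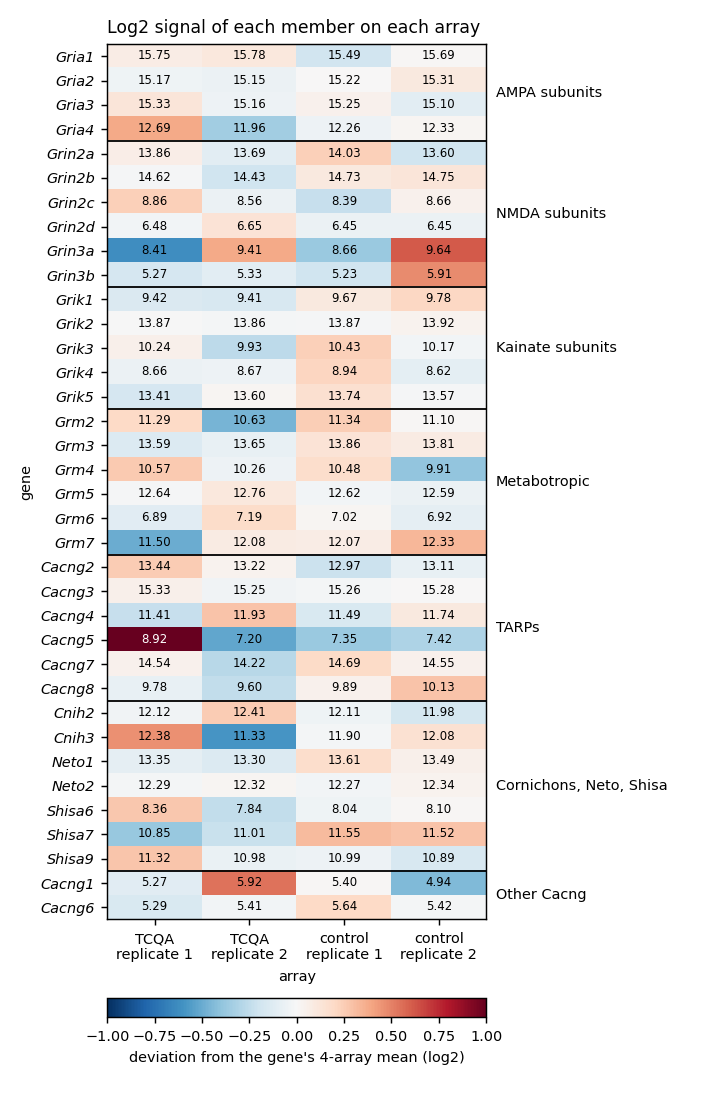
Each row is a gene and each column an array, TCQA at the left, with the log2 signal printed in the cell and the colour giving the deviation from the gene's mean over the 4 arrays (log2). Shisa7 was lower on both TCQA arrays, at 10.85 and 11.01 against 11.55 and 11.52 in control, while the strongest single colour is Cacng5 on TCQA replicate 1, at 8.92.

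**Figure D2:**
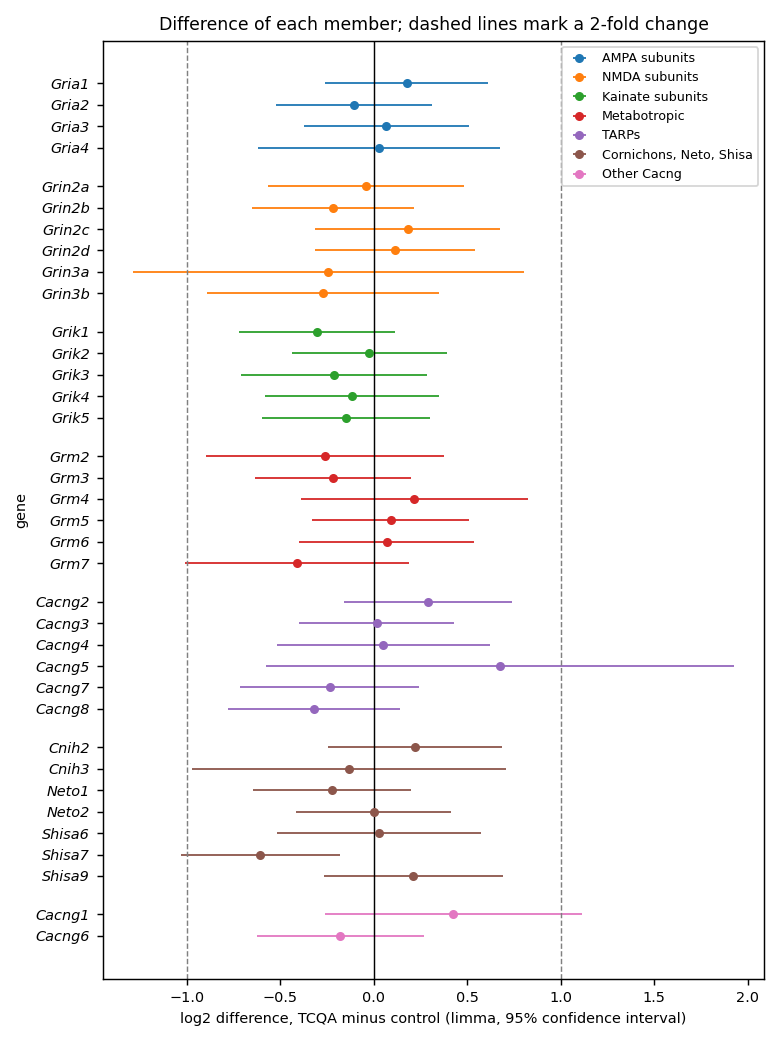
Points are log2 differences, TCQA minus control, of the 36 genes grouped by class, bars are 95% confidence intervals from limma, and dashed lines mark a 2-fold change. The interval of Shisa7, -1.03 to -0.18, is the only 1 of the 36 that does not include 0.

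Shisa7 encodes a single-pass membrane protein of the cystine-knot AMPA receptor modulating family, which associates with AMPA receptors and has also been described with GABA-A receptors. Its signals were 10.85 and 11.01 with TCQA, against 11.55 and 11.52 in control. Both TCQA arrays were lower than both control arrays, and the gap between the groups was wider than the gap within either. The group means were 10.93 ± 0.11 (SD, n = 2) with TCQA, against 11.54 ± 0.02 (SD, n = 2) in control. On the linear scale the TCQA level was 1.52-fold lower. The difference of -0.61 (SE 0.18) had a 95% confidence interval of -1.03 to -0.18, with a limma adjusted p of 0.787. Its unadjusted limma p was 0.0128. Leaving out each array in turn left the difference between -0.69 and -0.53, but the unadjusted limma p was 0.0641 without TCQA replicate 1 and 0.0535 without control replicate 1. Of the 11 excitatory neuron markers measured, 8 had a lower mean with TCQA, with a median difference of -0.22, and 3 were lower at an unadjusted p under 0.05, against 2.86% of all gene probe sets. Those 3 were Nrgn, or neurogranin, which binds calmodulin in spines, at -0.70, and the transcription factors Neurod2 at -0.50 and Cux2 at -0.48. The mean signal of the 11 markers was 11.78 and 11.35 with TCQA, against 11.86 and 11.68 in control, and their part in the Shisa7 difference was not tested. Other marker lists stood higher with TCQA. Thalamic markers had a higher mean in 6 of 8 with a median of 0.62, meningeal markers in 8 of 8 with a median of 0.32, and inhibitory neuron markers in 8 of 13 with a median of 0.30. Only 2 of the 8 meningeal markers were above the median negative control on every array, which limits their differences. For the thalamic list it was 7 of 8, and for the inhibitory neuron list 12 of 13. The meningeal mean was 7.97 and 7.87 with TCQA, against 7.18 and 7.66 in control. At an unadjusted p under 0.05, 2 thalamic, 3 meningeal and 2 inhibitory neuron markers were higher, against 3.38% of all gene probe sets. The thalamic and inhibitory neuron lists share the gene Calb2, which was counted in each, so their counts are not independent. The part of these markers in the Shisa7 difference was not tested either.

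The promoter of Shisa7 is shown because it was the 1 member past an unadjusted threshold. Those of Cacng7 and Cacng8 are shown because these neighbouring TARP genes were both lower without overlap. For Cacng7 that separation was very narrow, with TCQA replicate 1 at 14.5431 and control replicate 2 at 14.5461. The sequences are RefSeq's on GRCm38.p6, from 250 bases before to 50 bases after the transcription start, 5′ to 3′ on the gene's strand: Shisa7 at chr7:4844647-4844946 on the minus strand, Cacng7 at chr7:3332575-3332874 on the plus strand and Cacng8 at chr7:3393792-3394091 on the plus strand. Capitals mark the GC box GGGCGG, the core of the motif bound by Sp1 family factors, or its reverse complement.
Shisa7: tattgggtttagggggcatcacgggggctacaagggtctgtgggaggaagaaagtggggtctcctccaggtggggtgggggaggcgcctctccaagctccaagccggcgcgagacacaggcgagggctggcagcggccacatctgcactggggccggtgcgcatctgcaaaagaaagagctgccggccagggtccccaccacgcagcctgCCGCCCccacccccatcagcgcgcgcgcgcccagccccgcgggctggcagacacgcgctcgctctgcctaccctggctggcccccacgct
Cacng7: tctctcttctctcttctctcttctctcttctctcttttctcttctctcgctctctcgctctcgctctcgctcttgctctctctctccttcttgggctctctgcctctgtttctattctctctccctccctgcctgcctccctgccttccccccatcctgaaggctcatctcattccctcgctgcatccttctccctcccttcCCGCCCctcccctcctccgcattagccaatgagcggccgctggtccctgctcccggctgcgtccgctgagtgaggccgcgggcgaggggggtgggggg
Cacng8: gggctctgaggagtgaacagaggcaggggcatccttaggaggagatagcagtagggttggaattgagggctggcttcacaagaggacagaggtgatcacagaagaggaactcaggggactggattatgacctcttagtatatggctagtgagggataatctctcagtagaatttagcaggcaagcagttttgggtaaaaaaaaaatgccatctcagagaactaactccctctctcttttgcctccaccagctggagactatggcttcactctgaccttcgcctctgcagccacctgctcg
Shisa7 and Cacng7 each held 1 GC box on the minus strand of the printed sequence and Cacng8 held 0. The G and C content was 70.3% for Shisa7, 62.0% for Cacng7 and 50% for Cacng8. Promoter sequence was given for 23 of the 36 genes, as 26 promoters. Of these 14 (53.8%) held GGGCGG on either strand, against 35.7% of all 32851 promoters of the same length. TGACGTCA, the cyclic AMP response element bound by CREB, was found in 0 of the 26, against 1.79% of all. The consensus palindrome of the respiratory factor NRF1 was found in 2 of the 26 (7.69%), against 4.6% of all. TATAAA, the TATA box, was found in 1 of the 26, against 13.6% of all. The letters describe these windows and were not tied to any difference between the groups.

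Among the AMPA receptor subunits no gene differed by as much as 0.2 and none had an unadjusted p under 0.05. Gria1, a subunit whose insertion follows synaptic potentiation, was at 15.75 and 15.78 with TCQA, against 15.49 and 15.69 in control. Both TCQA arrays were higher, but the difference of 0.18 (SE 0.18, limma adjusted p = 0.889) was smaller than the gap of 0.21 between the control arrays. Gria2, whose edited form makes AMPA receptors nearly impermeable to calcium, was at 15.17 and 15.15 with TCQA, against 15.22 and 15.31 in control. Its groups did not overlap either, with TCQA lower, at a difference of -0.10 (SE 0.17, limma adjusted p = 0.937). Taken within each array, the log2 signal of Gria1 minus that of Gria2 was 0.58 and 0.63 with TCQA, against 0.26 and 0.38 in control. Only its change can be read, since levels of different probe sets are not comparable. The change was 0.28 (exact two-sided permutation p = 0.333, the smallest that 2 arrays against 2 can give). Gria3 differed by 0.07 with overlapping groups. Gria4, a subunit of fast channels that is prominent in interneurons and the thalamus, was at 12.69 and 11.96 with TCQA and 12.26 and 12.33 in control, so its TCQA arrays lay on either side of the control arrays. Its difference of 0.03 was -0.33 without TCQA replicate 1 and 0.39 without TCQA replicate 2.

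The NMDA receptor subunits measured were the glutamate-binding Grin2a to Grin2d and the glycine-binding Grin3a and Grin3b, with a median difference of -0.13. Of these 6, 4 were lower and 2 higher. The median was nearer 0 without any 1 of the arrays, from -0.09 without control replicate 1 to 0.09 without control replicate 2. Grin2b, the subunit that dominates in the young forebrain, was at 14.62 and 14.43 with TCQA, against 14.73 and 14.75 in control. Both TCQA arrays were lower, with a difference of -0.22 (SE 0.18, limma adjusted p = 0.862). Grin2a, which gains on Grin2b as the cortex matures, was at 13.86 and 13.69 with TCQA and 14.03 and 13.60 in control, and its groups overlapped. Grin2b minus Grin2a within each array was 0.76 and 0.74 with TCQA, against 0.70 and 1.16 in control, a change of -0.18 with overlapping groups (exact two-sided permutation p = 1.0).

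Grin2c, best known from cerebellar granule cells and glia, differed by 0.18 and Grin2d, an early and interneuron subunit, by 0.12. The 2 control arrays of Grin2d read 6.45 each and the TCQA arrays 6.48 and 6.65, all under the median negative control of the arrays. Grin3a, a subunit that lowers calcium permeability, was at 8.41 and 9.41 with TCQA and at 8.66 and 9.64 in control. Both groups therefore spread by about 1 log2 unit, a gap of 0.99 with TCQA and 0.98 in control. Its difference of -0.24 was 0.25 without TCQA replicate 1 and -0.74 without TCQA replicate 2, with a 95% confidence interval of -1.29 to 0.80. Grin3b was dim, at 5.27 and 5.33 with TCQA and 5.23 and 5.91 in control.

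All 5 kainate receptor subunits had a lower mean with TCQA, with a median difference of -0.15 and differences from -0.30 to -0.02, and none had an unadjusted p under 0.05. Leaving out control replicate 1 gave a median of -0.07, and leaving out control replicate 2 one of -0.25. Among all gene probe sets 48.9% had a lower mean. Grik1, a subunit of interneurons and sensory neurons, was at 9.42 and 9.41 with TCQA, against 9.67 and 9.78 in control. The TCQA arrays were 0.01 apart and both under the control arrays, 0.11 apart, and the difference was -0.30 (SE 0.17, limma adjusted p = 0.828). Without variance moderation its unadjusted p was 0.0311. Grik2, a main subunit of forebrain principal cells, was level, at 13.87 and 13.86 with TCQA and 13.87 and 13.92 in control, a difference of -0.02 (95% confidence interval -0.44 to 0.39). Grik3 differed by -0.21. The high-affinity subunits, which need a partner from Grik1 to Grik3 to form channels, differed by -0.12 for Grik4 and -0.15 for Grik5. The groups of Grik2, Grik3, Grik4 and Grik5 overlapped. The Grik2 difference was 0.00 without control replicate 2 and that of Grik4 was 0.04 without control replicate 1, so the shared direction of the 5 genes depended on which arrays were used.

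The kainate receptor partner Neto1, which also binds NMDA receptors, was at 13.35 and 13.30 with TCQA, against 13.61 and 13.49 in control. Both TCQA arrays were lower, with a difference of -0.22 (SE 0.17, limma adjusted p = 0.858). Neto2, its relative, was at 12.29 and 12.32 with TCQA and at 12.27 and 12.34 in control, with a difference of 0.00 and a 95% confidence interval of -0.42 to 0.41. The smallest difference of all 36 members was that of Neto2.

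Of the metabotropic receptors 3 were lower and 3 higher, with a median difference of -0.07. The group II receptors, which couple to inhibitory G proteins, were both lower. Grm3, found on astrocytes as well as neurons, was at 13.59 and 13.65 with TCQA, against 13.86 and 13.81 in control. Arrays of the same group lay within 0.06 of each other and the groups did not overlap, with a difference of -0.22 (SE 0.17, limma adjusted p = 0.861). Without variance moderation its unadjusted p was 0.0334. Astrocyte markers had a higher mean with TCQA in 8 of 10, with a median difference of 0.22, and their part in the Grm3 values was not tested. Grm2, a presynaptic autoreceptor, was at 11.29 and 10.63 with TCQA and 11.34 and 11.10 in control. Its difference of -0.26 was -0.59 without TCQA replicate 1 and 0.07 without TCQA replicate 2.

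Grm5, a group I receptor, which signals through phospholipase C and calcium stores, was at 12.64 and 12.76 with TCQA, against 12.62 and 12.59 in control. The groups did not overlap, but the difference of 0.09 was smaller than the gap of 0.12 between the TCQA arrays. Grm7, a presynaptic group III receptor with low affinity for glutamate, was at 11.50 and 12.08 with TCQA and 12.07 and 12.33 in control. TCQA replicate 1 alone was clearly lower, and the difference of -0.41 (SE 0.25, limma adjusted p = 0.831) was -0.12 without that array. Grm4 was 0.22 higher with overlapping groups. Grm6, the receptor of retinal bipolar cells, was dim, at 6.89 and 7.19 with TCQA and 7.02 and 6.92 in control.

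Among the 6 TARPs 4 were higher and 2 lower, with a median difference of 0.03 that was -0.10 without TCQA replicate 1 and 0.10 without control replicate 2. Cacng2, which encodes stargazin, the TARP that cerebellar granule cells need for surface AMPA receptors, was at 13.44 and 13.22 with TCQA, against 12.97 and 13.11 in control. Both TCQA arrays were higher, with a difference of 0.29 (SE 0.19, limma adjusted p = 0.832). Cacng8, the TARP prominent in the hippocampus and forebrain, was at 9.78 and 9.60 with TCQA, against 9.89 and 10.13 in control. Both TCQA arrays were lower, with a difference of -0.32 (SE 0.19, limma adjusted p = 0.831). Cacng2 minus Cacng8 within each array was 3.66 and 3.62 with TCQA, against 3.07 and 2.98 in control. That change of 0.61 had an exact two-sided permutation p of 0.333, again the smallest possible, and the pair was chosen with its values known. A further pair taken within each array, Grik2 minus Grik5, changed by 0.13 with overlapping groups (exact two-sided permutation p = 0.667). Cacng3, a forebrain TARP, was level, at 15.33 and 15.25 with TCQA and 15.26 and 15.28 in control.

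Cacng7, a type II TARP, was at 14.54 and 14.22 with TCQA, against 14.69 and 14.55 in control, a difference of -0.24 with a gap of 0.32 between the TCQA arrays. Cacng5, the other type II TARP, had the largest difference of the members, and it came from 1 array. Its signals were 8.92 and 7.20 with TCQA, against 7.35 and 7.42 in control. The median negative control was 7.23 on TCQA replicate 2, above the gene's signal there, and 7.32 and 7.17 on the control arrays. Only TCQA replicate 1 stood above the other arrays, and the difference of 0.68 (SE 0.52, limma adjusted p = 0.853) was -0.18 without that array. Without TCQA replicate 2 it was 1.54, at an unadjusted limma p of 0.000222 and an adjusted p of 0.202. The hippocampal markers measured, 6 of 8 listed, had a mean of 7.41 and 7.57 with TCQA, against 7.45 and 7.64 in control. Of these 6, 4 had both group means under the median negative control, and their part in the Cacng5 values was not tested.

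**Figure D3:**
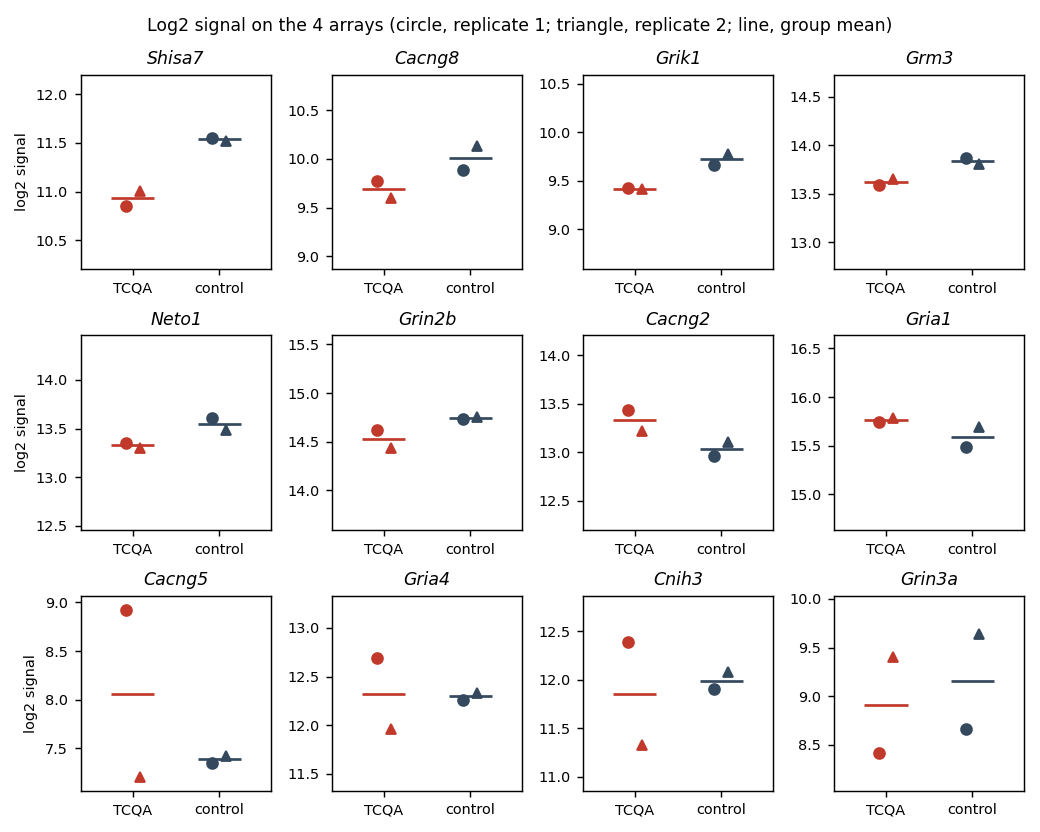
Log2 signals of 12 members on the 4 arrays, TCQA at the left and control at the right of each panel, with a circle for replicate 1, a triangle for replicate 2 and a line for the group mean. Every panel spans 2 log2 units: Shisa7, Grik1, Grm3, Neto1, Grin2b and Cacng8 were lower on both TCQA arrays, Cacng2 and Gria1 were higher, and the lowest row of panels holds genes whose groups overlap.

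The Cacng genes lie in chains on the mouse genome. Cacng7, Cacng8 and Cacng6 follow each other on chromosome 7 with 0 protein-coding genes between them, and Cacng1, Cacng4 and Cacng5 do so on chromosome 11. The 3 genes of the chromosome 7 chain were all lower with TCQA without overlap between groups, as were 17.8% of all gene probe sets. Their differences were -0.24 for Cacng7, -0.32 for Cacng8 and -0.18 for Cacng6. The groups of Cacng7 and Cacng6 barely separated. For Cacng7, TCQA replicate 1 was at 14.5431 and control replicate 2 at 14.5461. For Cacng6, TCQA replicate 2 was at 5.41065 and control replicate 2 at 5.41585. Both differences were smaller than the wider within-group gap. Cacng7 was -0.08 without TCQA replicate 2 and Cacng6 -0.07 without control replicate 1. The 3 of the chromosome 11 chain all had a higher mean with overlapping groups, at 0.43 for Cacng1, 0.05 for Cacng4 and 0.68 for Cacng5. Cacng4 was -0.21 without TCQA replicate 2, and Cacng5 reversed as given above. Cacng1 is the skeletal muscle calcium channel subunit and Cacng6 its close relative, and neither is an AMPA receptor partner. Cacng1 was at 5.27 and 5.92 with TCQA and 5.40 and 4.94 in control, and Cacng6 at 5.29 and 5.41 with TCQA and 5.64 and 5.42 in control. All 8 of these signals were under the median negative control.

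The cornichons, which slow the closing of AMPA receptors and help them leave the endoplasmic reticulum, went separate ways. Cnih2 was at 12.12 and 12.41 with TCQA, against 12.11 and 11.98 in control, a difference of 0.22 (SE 0.19, limma adjusted p = 0.868), with TCQA replicate 1 only 0.01 above control replicate 1. Cnih3 was at 12.38 and 11.33 with TCQA and at 11.90 and 12.08 in control. Its TCQA arrays were 1.05 apart and lay on either side of the control arrays. The difference of -0.13 was -0.66 without TCQA replicate 1 and 0.39 without TCQA replicate 2. Shisa9, which speeds AMPA receptor desensitization, was at 11.32 and 10.98 with TCQA and 10.99 and 10.89 in control, and Shisa6, a postsynaptic AMPA receptor partner, at 8.36 and 7.84 with TCQA and 8.04 and 8.10 in control. Both of these groups overlapped, and the differences were 0.21 for Shisa9 and 0.03 for Shisa6.

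For 28 of the 36 members (77.8%) the difference between the groups was smaller than the wider of the gaps between arrays of 1 group, against 75.5% of all gene probe sets. The 8 with a larger difference were Shisa7, Cacng8, Grik1, Cacng2, Neto1, Grm3, Grin2b and Gria2. The TCQA arrays were farther apart than the control arrays for 24 members (66.7%), against 51.1% of all gene probe sets. The gap exceeded 0.5 in the TCQA pair for 9 members and in the control pair for 3, a cutoff not counted over all gene probe sets. The members' median gap was 0.19 in the TCQA pair and 0.14 in the control pair. Over all gene probe sets the median gaps were 0.22 and 0.21. The lowest signal of the 4 came from TCQA replicate 2 in 14 members (38.9%) and from TCQA replicate 1 in 8 (22.2%), against 5 for control replicate 1 and 9 for control replicate 2. Over all gene probe sets those shares were 24.9% for TCQA replicate 2, 24.8% for TCQA replicate 1, 27.1% for control replicate 1 and 23.2% for control replicate 2. TCQA replicate 2 also gave the lowest signal for 8 of 11 excitatory neuron markers and the highest for 6 of 10 astrocyte markers, and the part of this in the members' spread was not tested.

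**Figure D4:**
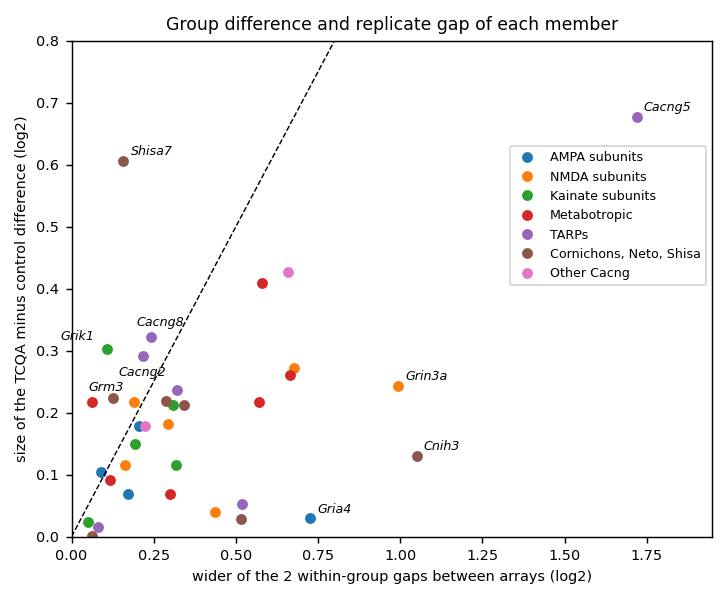
Each point is a member, coloured by class, with the wider within-group gap between arrays on the x axis and the size of the TCQA minus control difference on the y axis, both in log2 units. On the dashed line the difference equals the gap: 8 of the 36 members lie above it, Shisa7 farthest, and Cacng5 lies at the right with a gap of 1.72.

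Other genes of the glutamate synapse were read from lists of supply, traffic and signalling genes. Of the genes that make, load and clear glutamate, 14 of 18 listed were measured and had a median difference of 0.07, with 1 lower and 1 higher at an unadjusted p under 0.05, against 2.86% of all gene probe sets lower and 3.38% higher. The higher gene was Slc7a11, which exchanges cystine for glutamate, at 11.46 and 11.19 with TCQA, against 10.58 and 10.68 in control (difference 0.69, SE 0.19, limma adjusted p = 0.787). The lower gene was Slc17a8, a vesicular glutamate transporter, at a dim 5.87 and 5.64 with TCQA, against 6.47 and 6.13 in control. Of the genes of receptor assembly, traffic and anchoring 28 of 31 were measured, with a median of -0.01 and 0 at an unadjusted p under 0.05. The kinase subunits that phosphorylate AMPA receptors differed in sign. Camk2b was at 17.31 and 17.21 with TCQA, against 16.98 and 16.97 in control, a difference of 0.28, and Camk2a at 18.06 and 18.13 with TCQA, against 18.43 and 18.32 in control, a difference of -0.28. Cpt1c, an endoplasmic reticulum partner of AMPA receptors, differed by -0.29, and the scaffold gene Homer2 by 0.34. Of 19 measured signalling genes (22 listed) the median was -0.07 with 1 higher and 0 lower at an unadjusted p under 0.05. That gene was Rasgrf1, a calcium-dependent Ras activator downstream of NMDA receptors, at 11.03 and 11.20 with TCQA, against 10.47 and 10.54 in control (difference 0.61, SE 0.18, limma adjusted p = 0.787). Immediate early genes, which neurons switch on through these receptors, had a lower mean in 12 of 12, against 48.9% of all gene probe sets. Their median difference was -1.46. Of the 12, 9 were lower at an unadjusted limma p under 0.05, against 2.86% of all gene probe sets. Control replicate 1 was their highest array in 12 of 12. That array was the highest for 10 of the 36 members, and TCQA replicate 1 was the highest for 10 as well. Over the 22206 gene probe sets control replicate 1 was the highest for 5292 and TCQA replicate 1 for 5864.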

How the data were processed

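Brain cortex RNA of 2 TCQA and 2 control samples was read on Clariom S mouse arrays. Per the labels' protocols, the authors made the deposited log2 signals, 1 per probe set, with the SST-RMA algorithm in Transcriptome Analysis Console 4.0.2. This equalises the distributions of the arrays, so a shift common to most genes would be removed. No source used here gives the array annotation's genome build. From the deposited values, 6640 control probe sets were left out and 22206 gene probe sets were kept, with no filter on dim ones. Groups came from the sample titles. Limma 3.58.1 in R 4.3.3 compared TCQA with control (lmFit, eBayes, two-sided), with 2 residual degrees of freedom, and p-values were adjusted by Benjamini-Hochberg over all 22206. Nothing says that the samples were separate animals, so the p-values reflect only how far these samples differ, in part perhaps technically. The procedure was tested on simulated data. Alternatives were a replicate block, no moderation, a variance trend, quantile or median scaling, a filter on dim probe sets, the brightest probe set of a symbol, and leaving out each array. Every member could be named, and of each other list up to 4 genes with the smallest p. The members and lists were chosen with earlier results of these data known. The platform table gave 1 symbol to 19572 probe sets, 0 of which the gene table changed, and 2634 were not named here.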

Additional observations from a re-analysis of the deposited data

How the results depend on the processing

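With 2 arrays a group, none of the alternatives run brought a member past the adjusted threshold, and outside the leave-one-out fits no member changed direction (0 of 36) across the block, moderation, trend, scaling, filter and probe set alternatives. The main fit did not pair arrays by replicate number. Deviations of same-numbered arrays correlated at 0.05 over all gene probe sets and at 0.19 over the 36 members. These correlations cannot show whether same-numbered arrays shared handling that affects some genes. With the replicate block 1 member, Shisa7, had an unadjusted limma p under 0.05, as in the fit without it. Without variance moderation 3 members did (Shisa7, Grm3 and Grik1). With probe sets under the median signal left out, which drops Grm6, the metabotropic median was -0.22. The filter left 31 of the members in the test.

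Leaving out each array in turn gave 1 to 3 members at an unadjusted p under 0.05 and 0 to 1 past the depositors' criterion, the 1 being Cacng5 without TCQA replicate 2. The median difference ranged from -0.066 to 0.16 for the AMPA subunits, from -0.10 to 0.10 for the TARPs, from -0.16 to -0.018 for the metabotropic receptors, from -0.091 to 0.090 for the NMDA subunits, from -0.25 to -0.065 for the kainate subunits, from -0.23 to 0.075 for the cornichon, Neto and Shisa genes and from -0.11 to -0.0027 for all members. In the same fits 20 of the 36 members kept their direction and 16 did not. Those 16 ranged from -0.66 to 0.39 for Cnih3, from -0.74 to 0.25 for Grin3a, from -0.025 to 0.057 for Cacng3, from -0.032 to 0.030 for Neto2, from -0.33 to 0.39 for Gria4, from -0.27 to 0.044 for Grik4, from -0.59 to 0.072 for Grm2 and from -0.018 to 0.15 for Gria3. The other 8 ranged from -0.61 to 0.066 for Grin3b, from -0.048 to 0.0012 for Grik2, from -0.081 to 0.22 for Grm6, from -0.23 to 0.29 for Shisa6, from -0.21 to 0.31 for Cacng4, from -0.18 to 1.54 for Cacng5, from -0.26 to 0.18 for Grin2a and from -0.068 to 0.50 for Grm4. Each such fit has 1 array in a group, which is assumed to vary like the others. Signal over background limits the 5 dim members most.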
